A study of Rattus norvegicus with 6 samples.

Results

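The aldehyde dehydrogenase genes (9) and the transketolase gene *Tkt* were followed in the corneal epithelium of diabetic and normal rats. These 10 genes were taken by symbol from the tables of the 6 libraries, which list 61453 loci each. Where several loci carried a symbol, the protein-coding locus with the highest mean level was used. All 10 genes had such a locus, and all 10 passed the filter on low values (a mean FPKM of at least 0.5), as did 42551 loci in all. FPKM is a fragment count scaled by the length of the transcript and the size of the library.

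The animals were male Brown Norway rats of 150 to 200 g, with no genetic modification given. The diabetic group (STZ, 3 libraries) had received 1 intraperitoneal dose of streptozocin at 50 mg/kg, a toxin of insulin-producing cells, and animals above 16.67 mmol/l of blood glucose were taken as diabetic. The normal group (NOR, 3 libraries) had received citrate buffer, and the epithelium of both groups was scraped off with a blade at 16 weeks. The paper's abstract names 3 diabetic rats, and 3 normal groups, as the source of the sequenced epithelium. Its methods count more corneas than libraries in each group. The sources used here state neither the age nor how corneas were combined into libraries. The p-values therefore measure only the spread between these libraries. This is the spread between rats only if each library holds 1 rat, and otherwise it may be technical.

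Aldehyde dehydrogenases oxidize reactive aldehydes, such as those left by lipid peroxidation, to the less reactive acids. The cornea holds a few soluble enzymes in amounts far beyond what catalysis needs, and these are called corneal crystallins by analogy with the crystallins of the lens. In the epithelium of many mammals the foremost of them is ALDH3A1, which also absorbs ultraviolet light. Transketolase, a thiamine-dependent enzyme of the nonoxidative pentose phosphate pathway, is a corneal crystallin as well, and ALDH1A1 takes that place in the keratocytes of some species.

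The libraries held 62288901 to 87040253 counts. The epithelial keratin *Krt12* had the second highest mean FPKM of the 21703 protein-coding loci. It made up most of the summed FPKM of 5 corneal epithelium markers, 3930 to 4499 in normal and 4228 to 4825 in diabetic libraries. Of these markers, *Upk1b* and *Clu* were higher in diabetic libraries without overlap, as were 3.94% of all loci tested. The diabetic mean was higher for 3 of the 5 and lower for 2 (*Pax6* and *Gjb6*). Transcripts of other tissues were present too. The summed FPKM of 9 keratocyte markers was 969 to 1257 in normal and 925 to 1088 in diabetic libraries, and 8 of the 9 had the lower mean in the diabetic group. The summed FPKM of 16 lens markers ran from 121 to 424 in normal libraries, and in the diabetic ones from 3.36 in replicate 3 to 1505 in replicate 2. The summed FPKM of 7 conjunctiva markers was 822 to 1422 in normal and 538 to 1211 in diabetic libraries, lowest in diabetic replicate 3. *Krt4* and *Krt13* (means of 418 and 605 FPKM) held most of that sum. By contrast, *Tff1* and *Tff3* had 0 counts in all 6 libraries and *Agr2* averaged 0.0115 FPKM, so these markers did not agree. Only *Krt8* of the 7 was higher in diabetic libraries without overlap, as were 3.94% of all loci tested. For 5 markers of the corneal endothelium the summed FPKM was 86.3 to 113 in normal and 76.1 to 121 in diabetic libraries. The part of any of these tissues in the values given here was not tested. In such bulk samples, fewer cells of a type and less RNA per cell cannot be told apart.

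*Aldh3a1*, the epithelial crystallin, was the most abundant protein-coding transcript in each of the 6 libraries. Its locus lies on chromosome 10 from 47489400 to 47499876 on the plus strand of build rn6. Its level was 9143, 9597 and 9171 FPKM in the normal libraries and 10326, 9245 and 9321 FPKM in the diabetic ones. The highest value was that of diabetic replicate 1, and the other 2 diabetic libraries lay within the normal range. The mean was 9304 ± 255 FPKM (SD, n = 3) in normal and 9631 ± 604 FPKM (SD, n = 3) in diabetic epithelium. This 1 gene took 1.98%, 2.08% and 2.01% of all counts in the normal libraries and 2.23%, 2.01% and 2.03% in the diabetic libraries. On the count scale it had a log2 fold change (diabetic minus normal) of 0.07 (SE 0.13, 95% interval −0.22 to 0.37), with an adjusted p of 0.991 in edgeR's quasi-likelihood test over all 42551 loci. In folds, the interval ran from 0.857 to 1.29.

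The level of *Aldh3a1* also varied little. Its coefficient of variation over the 6 libraries was 4.77%, and only 7.35% of the 5765 protein-coding loci averaging 5 FPKM or more had a lower one, their median being 10.8%. Set against *Krt12* within each library, *Aldh3a1* stood at 2.36 ± 0.178 times its FPKM in normal and 2.34 ± 0.068 times in diabetic epithelium (SD, n = 3 each). By plain counts, with no division by length, it exceeded *Krt12* by a factor of only 1.03 to 1.19. Among the 9 aldehyde dehydrogenases, *Aldh3a1* made up 97.6% to 98.1% of the summed FPKM.

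**Figure D1:**
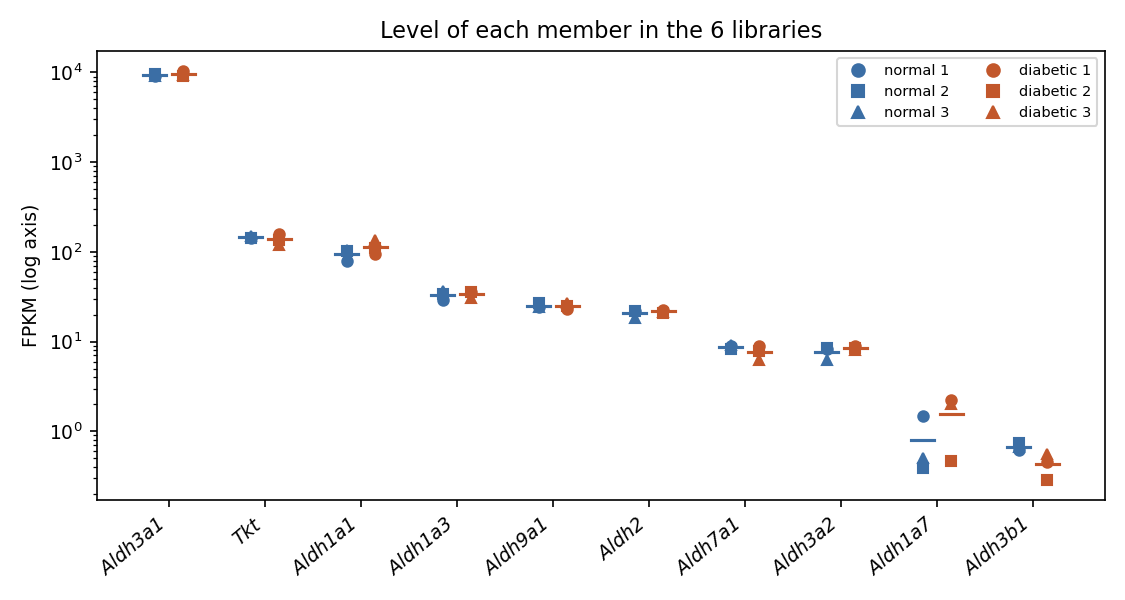
FPKM of the 10 genes in the 3 normal (blue) and 3 diabetic (orange) libraries on a log axis, with a bar at each group mean. *Aldh3a1* lies at 9143 to 10326 FPKM, far above the others, and only *Aldh3b1* shows no overlap between the groups.

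The other loci of the family spanned the range from about 100 FPKM to below 1. In the order of mean FPKM they were *Aldh1a1* (104), *Aldh1a3* (33.5), *Aldh9a1* (25.1), *Aldh2* (21.3), *Aldh7a1* (8.23), *Aldh3a2* (8.09), *Aldh1a7* (1.18) and *Aldh3b1* (0.553). Most neighbours kept this order in all 6 libraries. *Aldh7a1* exceeded *Aldh3a2* in only 2 of 6 libraries, and *Aldh1a7* exceeded *Aldh3b1* in 4 of 6, so neither pair was separated beyond its spread.

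*Aldh3a2*, the fatty aldehyde dehydrogenase of the endoplasmic reticulum, is the chromosomal neighbour of *Aldh3a1* (chromosome 10, 47525493 to 47546345, minus strand). Despite this position, *Aldh3a1* exceeded it by a factor of 1082 to 1480 in FPKM. *Aldh3a2* measured 8.17, 8.59 and 6.20 FPKM in normal and 8.98, 8.54 and 8.05 FPKM in diabetic libraries. Normal replicate 3 was the lowest, and the other 5 libraries overlapped. The log2 fold change was 0.18 (SE 0.16, 95% interval −0.19 to 0.54).

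Retinoic acid, a regulator of epithelial differentiation, is made from retinal by enzymes of the ALDH1A group. *Aldh1a1* (chromosome 1, 238222521 to 238264330, plus strand) was the more abundant of the retinal dehydrogenases. It measured 79.7, 102 and 104 FPKM in normal libraries and 94.0, 109.8 and 136 FPKM in diabetic libraries. Diabetic replicate 3 was highest and normal replicate 1 lowest, with the remaining values interleaved. The means were 95.4 ± 13.6 and 113 ± 21.1 FPKM (SD, n = 3 each), and the log2 fold change was 0.27 (SE 0.16, 95% interval −0.11 to 0.65). The edgeR adjusted p was 0.991. *Aldh1a3* (chromosome 1, 127301128 to 127337882, minus strand), a retinal dehydrogenase of developing eye and nose, measured 29.0, 33.6 and 37.0 FPKM against 35.8, 35.3 and 30.2 FPKM. The diabetic values lay wholly inside the normal range, and the log2 fold change was 0.05 (SE 0.13, 95% interval −0.26 to 0.36).

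*Aldh1a7* (chromosome 1, 240562423 to 240601744, minus strand), a rodent paralog of *Aldh1a1*, varied most among the 10 genes, with a coefficient of variation of 70.8%. Its counts were 204, 51 and 71 in normal and 331, 50 and 226 in diabetic libraries, or 1.495, 0.387 and 0.498 FPKM against 2.21, 0.463 and 2.03 FPKM. Both groups thus held high and low libraries. The log2 fold change of 0.99 carried an SE of 0.70 and a 95% interval of −0.65 to 2.63. Leaving out 1 library moved it from 0.65 (without diabetic replicate 1) to 1.84 (without normal replicate 1). A second locus with the same name and strand, which spans *Aldh1a7* and has no annotated type, held more counts, 5096 against 933 over the 6 libraries. Its level was 2.58, 2.37 and 2.28 FPKM in normal and 1.90, 2.03 and 2.00 FPKM in diabetic libraries, lower without overlap, and its log2 fold change was −0.26 (SE 0.14, edgeR adjusted p of 0.991). The direction for *Aldh1a7* therefore depended on the locus taken. Moreover, *Aldh1a7* lies inside the locus that joins *Trpm3* and *Mir204* on the opposite strand, and whether the libraries kept strand is not given. Reads of such pairs, or of near-identical copies, could have been split between loci, so its values are uncertain.

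Of the family members with housekeeping roles, *Aldh2* and *Aldh9a1* were the most even. *Aldh2* (chromosome 12, 40466397 to 40498840, plus strand), the mitochondrial enzyme for acetaldehyde, measured 22.2, 22.1 and 18.2 FPKM in normal and 22.4, 21.1 and 21.6 FPKM in diabetic libraries. *Aldh9a1* (chromosome 13, 85580828 to 85597493, plus strand), which serves carnitine synthesis, measured 24.1, 27.2 and 24.0 FPKM against 23.0, 25.0 and 27.3 FPKM. The groups overlapped for both genes, and the log2 fold changes were 0.08 (SE 0.12) and 0.02 (SE 0.11). *Aldh7a1* (chromosome 18, 51619007 to 51651267, minus strand), the antiquitin of lysine breakdown, measured 8.91, 8.23 and 9.22 FPKM against 8.83, 7.95 and 6.21 FPKM. Diabetic replicate 3 was the lowest of the 6, and the log2 fold change was −0.17 (SE 0.17, 95% interval −0.57 to 0.23).

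*Aldh3b1* (chromosome 1, 219145459 to 219186860, minus strand), a membrane-bound enzyme for lipid-derived aldehydes, was the 1 gene of the 10 whose groups did not overlap. It had 124, 142 and 137 counts in normal and 101, 46 and 91 counts in diabetic libraries, or 0.623, 0.734 and 0.660 FPKM against 0.460, 0.287 and 0.555 FPKM. Every diabetic value was below every normal one, a pattern found for 5.72% of all loci tested. None of the 10 genes was higher in diabetic libraries without overlap, against 3.94% of all loci. The log2 fold change was −0.60 (SE 0.31, 95% interval −1.33 to 0.12), and the edgeR adjusted p was 0.991. In folds, this interval ran from 0.399 to 1.09. A second locus of the same name, of 285 bases and without an annotated type or strand, lies inside this one. It held fewer counts, 258 against 641 over the 6 libraries, but a higher mean FPKM, its counts being divided by only 331 bases. Its groups overlapped, and its log2 fold change was 0.16 (SE 0.50). The main *Aldh3b1* locus shares 38510 bases with *Unc93b1* on the opposite strand, whose 2.12 to 2.57 FPKM in normal and 2.35 to 3.03 FPKM in diabetic libraries were higher than those of *Aldh3b1*. Without strand, reads from stretches that lie in transcripts of both genes cannot be told apart. How far the transcripts themselves overlap was not checked.

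*Tkt*, the transketolase gene, lies on chromosome 16 from 6609257 to 6642732 on the plus strand. It took 0.410%, 0.400% and 0.434% of all counts in the normal libraries and 0.452%, 0.384% and 0.343% in the diabetic libraries. In FPKM this was 144, 141 and 152 against 159.9, 135 and 121. Diabetic replicate 1 was the highest and diabetic replicate 3 the lowest, so that the normal libraries lay between them. The means were 146 ± 5.55 and 139 ± 19.9 FPKM (SD, n = 3 each), with a log2 fold change of −0.05 (SE 0.14, 95% interval −0.38 to 0.28) and an edgeR adjusted p of 0.995.

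The place of *Tkt* among the abundant transcripts depended on the scale. By its share of the counts it ranked 5 among the protein-coding loci, and by FPKM it ranked 119. Dividing counts by FPKM and library total gives the length that each FPKM was divided by, and for *Tkt* this was 28405 bases, or 84.9% of the span of its locus. For the 9 aldehyde dehydrogenases the length was 1732 to 3884 bases, or 4.40% to 20.7% of the span. The *Tkt* locus holds 6 transcripts, and its FPKM is therefore not on the per-length scale of a spliced messenger RNA. Whether its counts include reads from introns was not tested, so its rank by counts may not be that of the messenger RNA either. The factor of 66.6 between the mean FPKM of *Aldh3a1* and of *Tkt* shrank to 4.62 to 5.91 by counts. *Tkt* was higher than *Aldh1a1* in 5 of 6 libraries by FPKM and in all 6 by counts, where diabetic replicate 3, the exception by FPKM, held 220469 counts of *Tkt* and 22024 of *Aldh1a1*. The comparison of diabetic with normal libraries does not depend on the length, which they share.

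**Figure D2:**
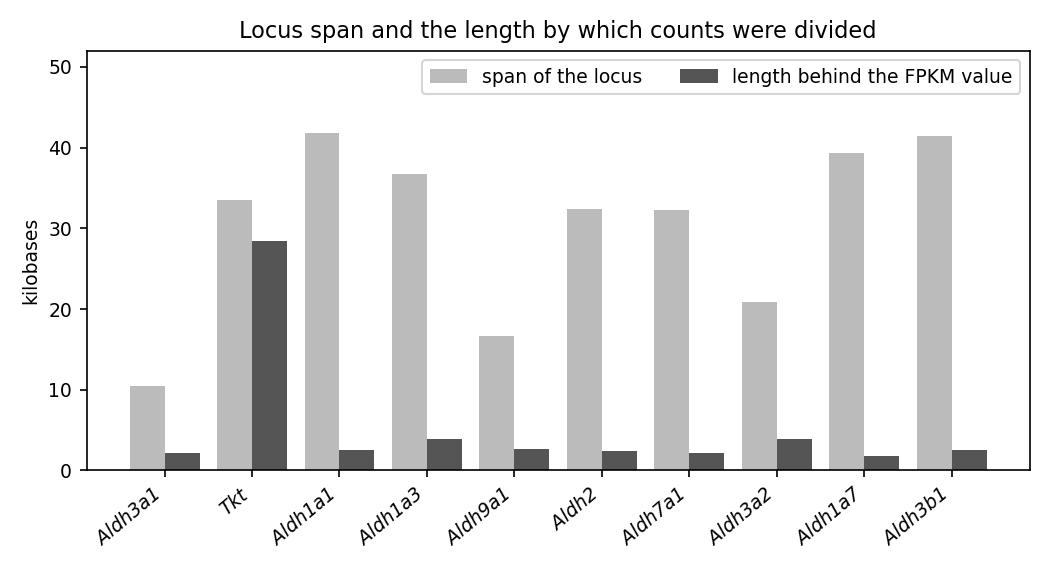
Span of each locus (grey bars) and the length behind its FPKM values (dark bars), in kilobases. For *Tkt* the length is 84.9% of the span, against 4.40% to 20.7% for the other 9 genes.

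In the comparison of the groups, 0 of the 10 genes passed in edgeR at an adjusted p below 0.05 and a fold over 1.2, against 0.0141% of all loci tested. At an unadjusted edgeR p below 0.05 it was again 0 of 10, where 4.14% of all loci lay. DESeq2 called 0 of 10 (0.233% of all loci), and limma on quantile-normalized log2(FPKM + 1) values called 0 of 10 (0.0259% of all loci). The log2 fold change was positive for 7 genes and negative for 3, with a median of 0.06. Over all loci it was positive for 21202 and negative for 21349.

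The width of the intervals differed among the genes. For 7 of the 10 the 95% interval lay inside a 1.5-fold change in either direction, and *Aldh1a1* stayed inside a 2-fold change. The intervals of *Aldh1a7* and *Aldh3b1*, the genes with the fewest counts, reached further. All 10 intervals included 0.

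**Figure D3:**
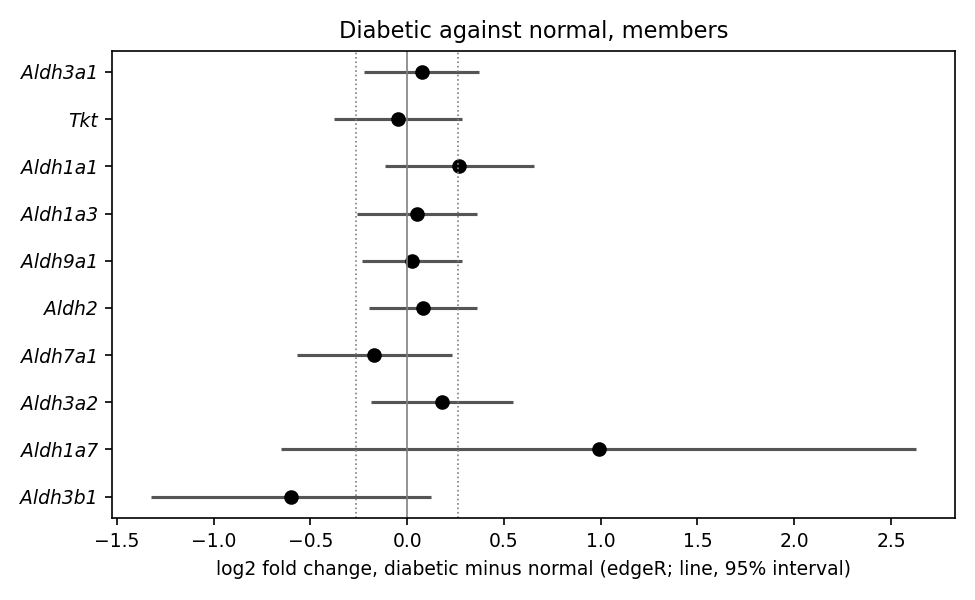
Log2 fold change of each gene, diabetic minus normal, with its 95% interval from edgeR; dotted lines mark a 1.2-fold change. All 10 intervals cross 0, and those of *Aldh1a7* and *Aldh3b1* are the widest.

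For *Aldh3a1* the normalization decided the sign. Quantile normalization gives each library the same set of values by rank, and among all loci tested *Aldh3a1* ranked 4, 4 and 4 in the normal libraries and 7, 7 and 3 in the diabetic libraries. The 7 loci that exceeded it in at least 1 library were loci of small structural RNAs (U1, U2 and 7SL RNA). After quantile normalization its log2 values were 13.26 in each normal library and 12.69, 12.69 and 13.38 in the diabetic ones. Diabetic replicate 1 thus came out among the lowest although its deposited FPKM was the highest. On that scale limma gave a log2 fold change of −0.34 (SE 0.45, 95% interval −1.40 to 0.71, adjusted p of 0.967), against 0.05 without quantile normalization.

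**Figure D4:**
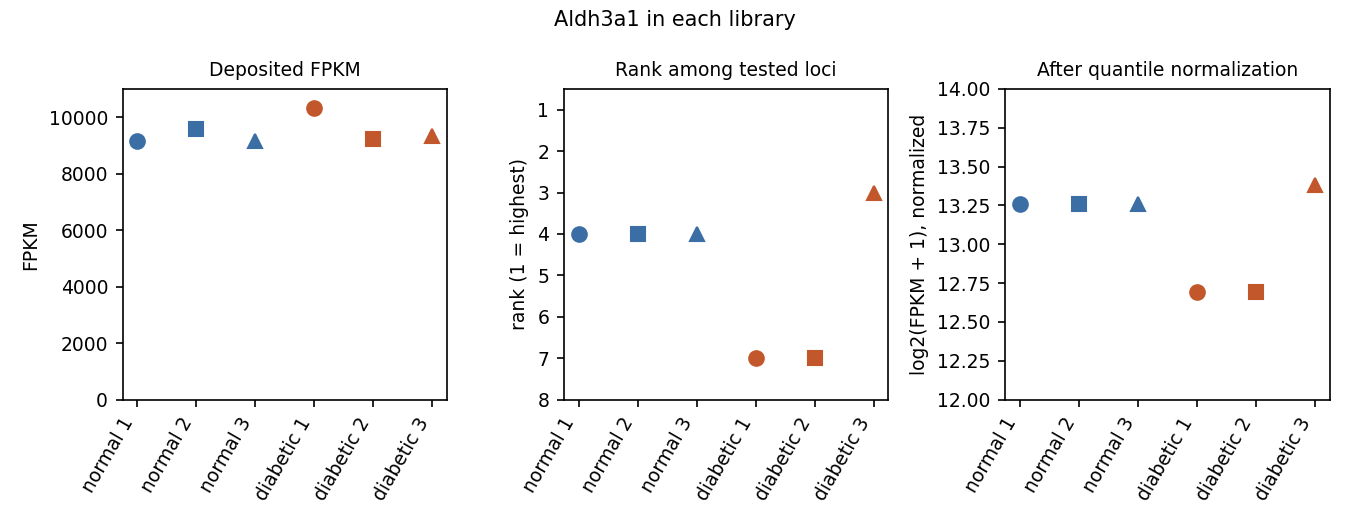
*Aldh3a1* in each library as deposited FPKM (left), as rank among the 42551 loci tested (middle) and as quantile-normalized log2(FPKM + 1) on an axis that does not start at 0 (right). Diabetic replicate 1 has the highest FPKM, 10326, and a normalized value of 12.69, below the 13.26 of the normal libraries.

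Genes around these enzymes were described by lists, of which 0 genes passed in edgeR, DESeq2 or quantile-normalized limma. Of all loci, 0.0141%, 0.233% and 0.0259% did. In the rest of the aldehyde dehydrogenase family, 4 of 11 listed genes reached the filter, and the median log2 fold change was 0.02. *Aldh18a1*, which makes a precursor of proline, measured 0.253, 1.02 and 1.53 FPKM in normal and 0.986, 1.52 and 3.82 FPKM in diabetic libraries, with a log2 fold change of 1.19 (SE 0.70). Diabetic replicate 3 stood above the other 5, which overlapped. *Aldh6a1*, of valine breakdown, had a log2 fold change of −0.10 (SE 0.11), and *Aldh16a1* had one of −0.16 (SE 0.19).

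The pentose phosphate pathway around *Tkt* supplies NADPH and ribose. Of its 11 other listed genes 8 were tested, and the median log2 fold change was −0.05. None of the 8 had an unadjusted edgeR p below 0.05, where 4.14% of all loci lay. *Taldo1*, which shares substrates with transketolase, measured 77.3 to 160.0 FPKM over the 6 libraries. *Rpia* (ribose phosphate isomerase) had a log2 fold change of −0.77 (SE 0.41), where normal replicate 2 stood at 14.3 FPKM and the other 5 libraries at 4.30 to 5.44 FPKM. *Rpe* had a log2 fold change of −0.47 (SE 0.29), and *H6pd*, the enzyme of the endoplasmic reticulum, one of 0.40 (SE 0.22).

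In the retinoid pathway 18 of 24 listed genes were tested, with a median log2 fold change of 0.11 and 1 gene of the 18 at an unadjusted edgeR p below 0.05, where 4.14% of all loci lay. This was *Cyp26a1*, which degrades retinoic acid. It measured 3.02, 3.70 and 2.89 FPKM in normal and 2.47, 0.865 and 1.39 FPKM in diabetic libraries, without overlap. Its log2 fold change was −0.998 (SE 0.37, 95% interval −1.87 to −0.13), and its edgeR adjusted p was 0.991. The other member of that enzyme family among the 3 smallest p-values, *Cyp26b1*, had a log2 fold change of 0.80 (SE 0.45), and the retinol receptor *Stra6* had one of 0.67 (SE 0.35). The receptor *Rarb* was lower without overlap too (log2 fold change −0.27, SE 0.18), so that 2 of the 18 genes had groups apart, against 9.66% of all loci tested. *Adh7*, a retinol-oxidizing enzyme of surface epithelia, measured 99.6 to 133 FPKM.

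Other enzymes that clear aldehydes held the smallest p-values of all lists. Of 14 tested, 2 had an unadjusted edgeR p below 0.05 (4.14% of all loci did), both with higher values in diabetic libraries, and the median log2 fold change was −0.04. *Ptgr1*, which reduces the double bond of lipid peroxidation aldehydes, measured 308, 301 and 337 FPKM in normal and 376, 372 and 403 FPKM in diabetic libraries. The groups did not overlap, and the log2 fold change was 0.31 (SE 0.10, 95% interval 0.08 to 0.53, edgeR adjusted p of 0.991). *Akr1b8*, an aldo-keto reductase, measured 3.26, 0.733 and 0.728 FPKM against 4.67, 4.51 and 6.66 FPKM. Its groups did not overlap either, although normal replicate 1 stood well above the other normal libraries, and the log2 fold change was 1.76 (SE 0.60, 95% interval 0.34 to 3.17, edgeR adjusted p of 0.991). *Cbr3*, a carbonyl reductase, was lower without overlap at 8.85, 9.18 and 8.91 FPKM against 7.98, 6.65 and 5.75 FPKM, with a log2 fold change of −0.38 (SE 0.17). Groups were thus apart for 3 of the 14 genes, against 9.66% of all loci tested.

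Other proteins, most of them enzymes, serve as lens or corneal crystallins in some species. For the 8 tested, the log2 fold changes ran from −0.10 to 0.11, and the 3 of smallest p were *Eno1* (0.11, SE 0.12), *Asl* (0.10, SE 0.18) and *Cryl1* (−0.10, SE 0.18). *Eno1*, the glycolytic enolase, measured 171 to 209 FPKM. *Gsn* (gelsolin) and *Ldhb* (a lactate dehydrogenase) varied widely within both groups, at 17.0 to 79.3 and 14.5 to 42.9 FPKM. Their log2 fold changes of 0.04 (SE 0.61) and −0.02 (SE 0.42) are accordingly uncertain.

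Of 10 tested transcription factors and aryl hydrocarbon receptor targets, none had an unadjusted edgeR p below 0.05, where 4.14% of all loci lay. The median log2 fold change was −0.03. *Nqo1*, a quinone reductase induced with phase II enzymes, measured 13.7, 31.5 and 34.6 FPKM in normal and 89.1, 24.1 and 29.9 FPKM in diabetic libraries. Diabetic replicate 1 alone stood high, and the log2 fold change of 0.87 had an SE of 0.55. *Pax6*, the eye field factor, had a log2 fold change of −0.14 (SE 0.13), and *Tiparp*, a target of the receptor, had one of 0.13 (SE 0.26). The receptor *Ahr* itself measured 9.29 to 13.1 FPKM, whereas its target *Cyp1a1* reached at most 0.537 FPKM.

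**Figure D5:**
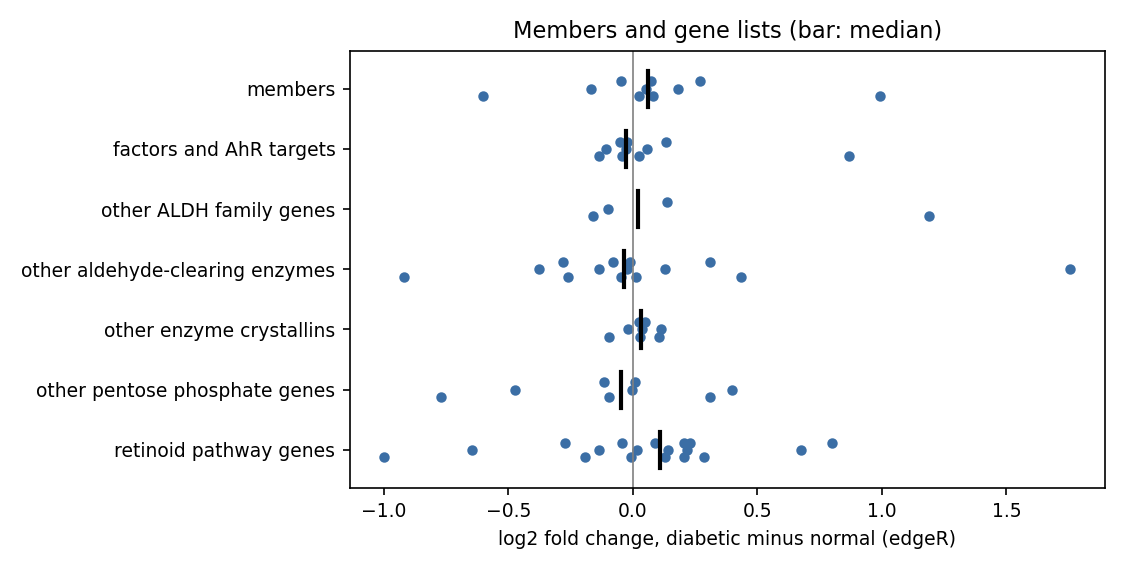
Log2 fold change from edgeR, diabetic minus normal, of the 10 genes (members) and of the tested genes of each list, 1 point per gene and a bar at the median. The medians lie between −0.05 and 0.11, and *Akr1b8* at 1.76 is the point furthest to the right.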

How the data were processed

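Total RNA of scraped corneal epithelium was sequenced in 3 libraries per group. The authors deposited raw counts and FPKM per locus; the submitters' processing notes name cutadapt, FastQC, Bowtie2 and build rn6. The assembler, the counter, the strand setting and the versions of these tools go unstated in the sources used here. A placeholder FPKM at a count of 0 (86380 values) was set to 0. A count of 0 allows up to 3 counts, or 0.0345 to 0.0482 CPM; this covers counting error only. Loci without an annotated type took 18.1% to 19.9% of the counts.

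Counts of the 42551 loci were compared with edgeR 4.0.16 in R 4.3.3 (TMM, quasi-likelihood, no covariate). The fit was also run on simulated counts with the same variability set for every locus. The real libraries vary less evenly, so that run does not show how well the fit works on them. Passing meant a p below 0.05 after Benjamini-Hochberg adjustment over all 42551 loci and a fold over 1.2. Alternatives were DESeq2 1.42.0 and limma (3.58.1) on normalized log2 values, limma being the package the study used. The paper names normalization with the affy package, but neither its method nor a filter on low values. Quantile normalization was chosen here, so this run may differ from the study's own test. It called far fewer loci than the number of changed mRNAs that the paper reports. FPKM and CPM were described without a test. Each list names its 3 genes of smallest p and any that passed. Other list genes with values, such as *Rarb*, *Cyp26c1*, *Taldo1*, *Adh7*, *Gsn*, *Ldhb*, *Ahr* and *Cyp1a1*, were chosen after their values were seen. Members and lists were chosen with earlier results of these data known.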

Additional observations from a re-analysis of the deposited data

How the results depend on the processing

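Across 21 settings the 10 genes gave 198 alternative values, of which 188 kept their sign and 10 did not. None passed under any of them, and the lowest adjusted p was 0.538. The listed genes passed under none either. The 10 reversed log2 fold changes were −0.34 for *Aldh3a1* with quantile normalization, −0.26 and −0.074 for *Aldh1a7* with the row of highest FPKM and the sum of both rows, 0.16 for *Aldh3b1* with the row of highest FPKM, −0.0034 for *Aldh9a1* with library sizes alone, and, leaving out 1 library, −0.013 and −0.020 for *Aldh9a1* (without normal replicate 3 or diabetic replicate 3; highest 0.088), −0.032 for *Aldh1a3* (without normal replicate 1; highest 0.14), −0.014 for *Aldh2* (without normal replicate 3; highest 0.13) and 0.059 for *Tkt* (without diabetic replicate 3; lowest −0.16). The causes were not tested, except that quantile values follow ranks.

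Over all loci, 6 passed in edgeR, 2 with annotated loci alone, 99 with DESeq2, 11 with quantile-normalized limma and 10 with limma on log2(FPKM + 1). Leaving out 1 library gave 2 (without diabetic replicate 2) to 14 loci (without normal replicate 1 or 2), and 10 without diabetic replicate 1 or 3. With the replicate number as a block, 0 loci passed. Same-numbered libraries did not deviate together (correlations −0.0087, 0.025 and 0.033), so the numbers are not taken as pairs. *Aldh1a7* and *Aldh3b1* had the fewest counts of the 10 genes, with at most 331 in a library, and *Aldh1a7* also varied most between libraries. What set the width of their intervals was not tested.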

Other observations

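The protein-coding genes whose centred log2 CPM lay closest to those of *Aldh3a1* over the 6 libraries were *Psmd11*, *Ube2a* and *Upf1*, with root mean square differences of 0.029, 0.029 and 0.031. For *Tkt* they were *Sf3a1*, *Pithd1* and *Atp5pb*, at 0.022, 0.031 and 0.036. These are descriptions over 6 libraries and 2616 genes with a mean FPKM of at least 10, with no test.

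Just past the end of *Aldh3a1*, a locus that carries its name but has no annotated type or strand starts 1487 bases downstream. It held 960, 1045 and 1534 counts in normal and 1514, 181 and 281 counts in diabetic libraries, or 0.0594% of the counts of *Aldh3a1*. Diabetic replicates 2 and 3 were the lowest there, and the log2 fold change was −0.82 (SE 0.63, 95% interval −2.30 to 0.65, edgeR adjusted p of 0.991). On the strand opposite to *Aldh1a3*, a locus of the same name measured 2.22, 3.05 and 3.44 FPKM in normal and 3.89, 2.32 and 1.82 FPKM in diabetic libraries, with overlap.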
